A study of Mus musculus with 6 samples.

Results

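Nt5e, Entpd1, Adora2a and P2rx7 were followed as the genes of the extracellular purine and adenosine pathway in kidney T cells. They were taken by gene symbol from the 32285 features of the count matrices, and each of the 4 symbols had 1 row in all 6 libraries. The libraries held αβ T cells (CD45+ TCRβ+) from wild type male C57BL/6J mice aged 7 to 8 weeks, sorted into CD4, CD8 and double negative (DN, neither CD4 nor CD8) cells. They came either from normal kidneys (control) or from kidneys clamped on both sides for 30 min and reperfused (IR), in which serum creatinine was read at 24 h. The control mice were not described as sham operated, the number of mice behind each library is not stated in what was read here, and each group was 1 library. No test between groups was run, and every interval below is a 95% interval that covers counting error only, not the spread between animals.

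Injured and dying cells release ATP, which acts on T cells directly and is also the source of adenosine. Entpd1 encodes CD39, the membrane enzyme that removes phosphates from ATP and ADP to give AMP, and Nt5e encodes CD73, which turns AMP into adenosine. Adora2a encodes a Gs-coupled adenosine receptor that raises cAMP and restrains T cell receptor signals. P2rx7 encodes an ATP-gated cation channel that on mouse T cells can also be opened by extracellular NAD through the ADP-ribosyltransferase made by Art2b. In the ischemic kidney, ATP is known for promoting inflammation and adenosine for limiting it.

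In the GRCm38 build with the GENCODE M21 annotation, all 4 genes lie on the plus strand. Entpd1 spans chr19:40612366-40741602, of which 123657 bases are intronic, the longest intronic stretch of the 4. Nt5e spans chr9:88327197-88372092 with 36294 intronic bases, P2rx7 spans chr5:122643911-122691432 with 41552, and Adora2a spans chr10:75316877-75334784 with 14846. No annotated gene on the opposite strand overlaps any of them, and Entpd1 holds the sense intronic transcript AC166063.1, which has its own row in the matrices. The pseudogenes Gm16027 and Gm8783 inside Entpd1 and the miRNA gene Mir8115 inside P2rx7, all on the same strand, have no row. The counts are per gene, so that transcripts from alternative starts could not be told apart.

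Entpd1 and P2rx7 were the members with the largest differences between control and IR libraries, and the sequence upstream of their starts is shown for that reason. The windows run from 250 to 21 bases before a RefSeq start (GRCm38.p6, plus strand), and both RefSeq starts of Entpd1 are given. Capitals mark matches, on either strand, to 5 motifs that were searched: ACGTG (the hypoxia response core), TGACG (the core of the cAMP response element), TGACGTCA (the full cAMP response element), TGAGTCA (AP-1) and GGGCGG (a GC box). TGACGTCA contains TGACG.
Entpd1, chr19:40612116-40612345: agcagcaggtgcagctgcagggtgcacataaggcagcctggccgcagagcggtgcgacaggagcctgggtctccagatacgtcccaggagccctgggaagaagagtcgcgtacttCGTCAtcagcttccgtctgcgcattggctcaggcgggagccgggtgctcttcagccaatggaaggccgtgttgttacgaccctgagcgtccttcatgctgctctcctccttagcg
Entpd1, chr19:40659520-40659749: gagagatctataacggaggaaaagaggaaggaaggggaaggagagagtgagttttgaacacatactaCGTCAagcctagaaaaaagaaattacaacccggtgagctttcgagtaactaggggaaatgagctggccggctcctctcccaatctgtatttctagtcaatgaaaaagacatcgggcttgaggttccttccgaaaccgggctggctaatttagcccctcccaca
P2rx7, chr5:122643677-122643906: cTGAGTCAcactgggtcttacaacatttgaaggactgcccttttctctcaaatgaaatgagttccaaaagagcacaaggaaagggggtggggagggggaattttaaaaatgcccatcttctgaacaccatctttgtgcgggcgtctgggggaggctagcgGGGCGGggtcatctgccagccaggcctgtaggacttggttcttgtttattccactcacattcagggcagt
Each Entpd1 window held 1 TGACG, on the minus strand, a motif found in 15.9% of all 32851 windows of this length. The P2rx7 window shown held TGAGTCA 249 bases before the start, a motif found in 4.17% of windows, and GGGCGG 90 bases before it, found in 29.8%. A window at a further P2rx7 start (chr5:122650133-122650362), not shown, held none of the 5 motifs. ACGTG, found in 15.1% of windows, and TGACGTCA, found in 1.28%, were in none of the windows of Entpd1, P2rx7 and Nt5e. The Nt5e window, which lies inside an annotated exon and is not shown, held GGGCGG in 2 overlapping places. No window was matched for Adora2a.

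A total of 47939 cells was used, 4042 to 10108 per library. Depth differed by condition: the median was 6626 to 8365 UMIs (unique transcript molecules) per cell in the control libraries and 1451 to 2356 in the IR libraries. The control matrices named Cell Ranger 5.0.1 and the IR matrices 6.0.1, so that condition, depth and software version cannot be told apart. Levels are given as CPM, the UMIs of a gene per 1000000 UMIs of a library after ribosomal protein genes, mitochondrial genes and Malat1 were set aside. These took 21.02% to 26.6% of UMIs in control and 30.5% to 45.3% in IR libraries. The sorts held by their own markers: Cd4 was 210.4 and 146 CPM in the control and IR CD4 libraries and under 0.5 CPM in the other 4, and Cd8a and Cd8b1 together were 2238 and 1495 CPM in the CD8 libraries and at most 6.27 CPM elsewhere. The 6 T cell receptor and CD3 genes were all detected in every library, with summed levels of 6323 to 8585 CPM. Myeloid markers summed to 8.15 to 25.6 CPM in control and 31.5 to 146 CPM in IR libraries, and hemoglobin genes to 1.16 to 1.28 and 20.1 to 27.5 CPM; the part of hemoglobin RNA, as of the platelet and B cell RNA given next, in the results was not tested. Platelet markers summed to 0.872 to 1.45 CPM in control and 6.36 to 11.6 CPM in IR libraries, and B cell markers to 1.91 to 11.8 and 11.5 to 26.2 CPM. Tubule markers stayed at or under 2.05 CPM in all 6. Endothelial markers summed to 129, 99.8 and 45.6 CPM in control CD4, CD8 and DN cells and to 102, 80.2 and 46.5 CPM in the IR libraries. Nearly all of each sum came from 1 of the 5 genes, and its part in the results was not tested.

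Of the enzymes, Entpd1 had a level of 114 CPM (111 to 117) in control CD4, 101 CPM (98.3 to 104) in control CD8 and 156 CPM (152 to 159) in control DN cells. It was at 47.5 CPM (44.1 to 51.1) in IR CD4, 28.6 CPM (24.6 to 33.0) in IR CD8 and 85.5 CPM (77.1 to 94.6) in IR DN cells. All 6 intervals were separate, and every IR library lay below every control library. Nt5e was at 52.6 CPM (50.6 to 54.6), 40.1 CPM (38.3 to 42.0) and 61.9 CPM (60.0 to 63.9) in control CD4, CD8 and DN cells, against 43.9 CPM (40.7 to 47.4), 33.7 CPM (29.3 to 38.5) and 63.4 CPM (56.2 to 71.3) in the IR libraries. In the order of its levels both DN libraries came first and their intervals overlapped, as did those of IR CD4 with control CD8 and of control CD8 with IR CD8. The enzymes of the steps from ATP to adenosine thus differed in pattern, since the order of Nt5e levels put no condition wholly above the other.

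Of the receptors, Adora2a was at 50.03 CPM (48.1 to 52.0) in control CD4, 40.2 CPM (38.4 to 42.1) in control CD8 and 63.4 CPM (61.4 to 65.4) in control DN cells. It was at 40.5 CPM (37.3 to 43.8) in IR CD4, 19.9 CPM (16.6 to 23.6) in IR CD8 and 60.9 CPM (53.8 to 68.6) in IR DN cells. The intervals of the DN libraries overlapped, those of IR CD4 and control CD8 did too, and IR CD8 stood alone at the bottom. P2rx7 was at 274 CPM (269 to 279) in control CD4, 109 CPM (106 to 112) in control CD8 and 276 CPM (272 to 281) in control DN cells. It was at 84.6 CPM (80.1 to 89.3) in IR CD4, 20.6 CPM (17.3 to 24.5) in IR CD8 and 130.4 CPM (119.9 to 142) in IR DN cells. Only control CD4 and control DN overlapped among these neighbours. In both kidneys each of the 4 genes had its highest level in DN and its lowest in CD8 cells, with the exception that control P2rx7 was marginally higher in CD4 than in DN cells under TMM scaling, after thinning to 1000 UMIs, as a mean over cells and without Ccr7 cells.

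**Figure D1:**
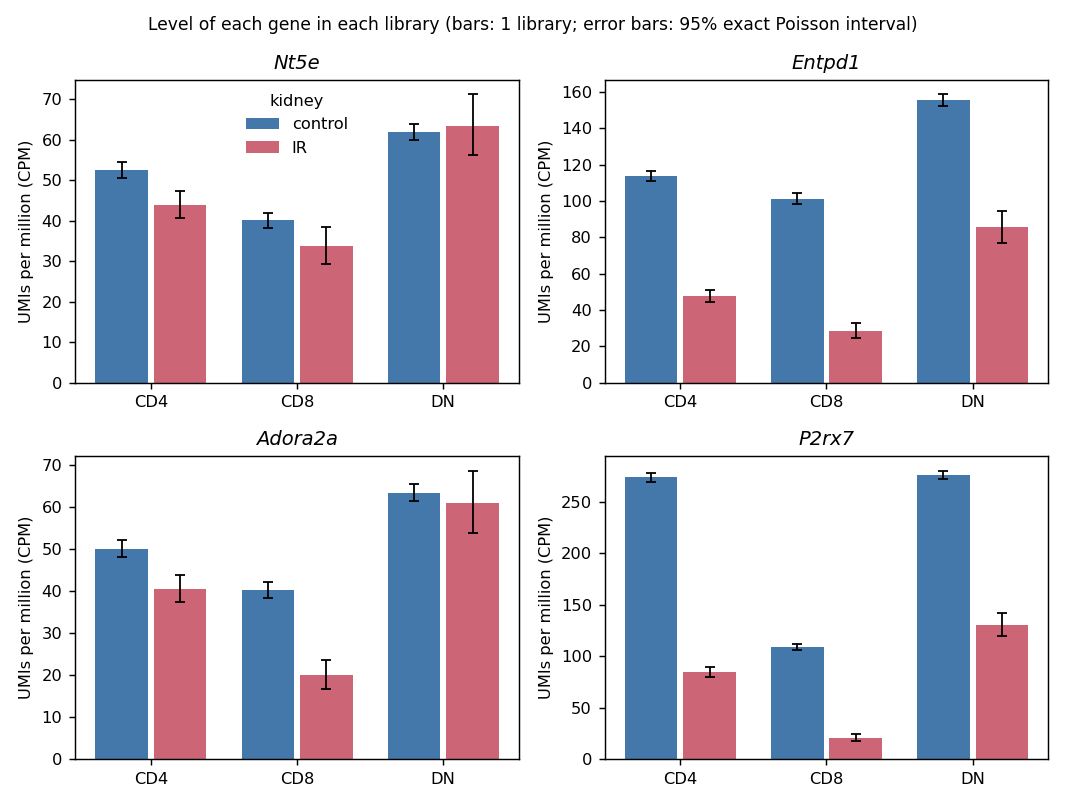
Level of Nt5e, Entpd1, Adora2a and P2rx7 in CPM on axes that start at 0, for CD4, CD8 and DN cells of the control (blue) and IR (red) kidney, with 1 library per bar and 95% exact Poisson intervals as error bars. Entpd1 and P2rx7 are lower in each IR library than in its control, from 276 to 130.4 CPM for P2rx7 in DN cells, while the bars of Nt5e and Adora2a in DN cells differ by less than their intervals.

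The share of cells with a UMI was compared after each cell was thinned to 1000 UMIs, leaving out 30 to 565 shallower cells per library. P2rx7 was found in 19.2% (18.4 to 20.02) of control CD4, 7.40% (6.86 to 7.97) of control CD8 and 18.1% (17.3 to 18.9) of control DN cells, against 5.15% (4.72 to 5.60), 1.12% (0.874 to 1.42) and 8.28% (7.41 to 9.22) in IR. Without thinning, at the depths given above, the shares were 60.0%, 25.5% and 67.2% in control and 10.6%, 1.72% and 11.7% in IR. Entpd1 was found in 8.65%, 7.55% and 11.6% of thinned control CD4, CD8 and DN cells and in 2.84%, 1.68% and 5.68% of IR cells. Nt5e was found in 3.60%, 2.77% and 4.19% of control and 2.40%, 1.496% and 3.84% of IR cells, and Adora2a in 3.68%, 3.09% and 4.95% of control and 2.52%, 1.22% and 3.89% of IR cells. Of these 12 contrasts, 10 were lower in IR with separate intervals, and those of Nt5e and Adora2a in DN cells overlapped. At 2000 UMIs, which 733 of 4042 IR DN, 2199 of 6332 IR CD8 and 6900 of 10108 IR CD4 cells reached, the count was also 10, but the intervals of Adora2a in DN cells were separate (9.64% against 6.00%) and those of Nt5e in CD8 cells overlapped. When cells were thinned instead to 500 UMIs of the retained genes, an alternative added once the data had been seen, 8 of 12 were lower with separate intervals, as Nt5e in CD4 and CD8 cells then overlapped too. How many of all genes were lower in this way was not counted at any depth. The 1000 and 2000 UMIs included ribosomal, mitochondrial and Malat1 UMIs, which took more of the IR libraries. With these kept in the total, the median IR over control log2 ratio of all genes at 10 CPM was -0.45 in DN, -0.64 in CD4 and -0.82 in CD8 cells.

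Clusters in which under 50% of barcodes held a CD3 UMI gave 338 non-T barcodes, with a median of 1571 UMIs, in which the members were read for comparison. Some cells outside the T lineage are known to carry Entpd1, and whether these UMIs were free RNA or the cells' own was not tested. After thinning, 255 of them were left, of which 3.53% (1.63 to 6.59) held Entpd1, 2.35% (0.868 to 5.05) P2rx7, 1.18% (0.243 to 3.40) Nt5e and 0.392% (0.00993 to 2.17) Adora2a. The shares of Entpd1 in IR CD4 and of Entpd1 and P2rx7 in IR CD8 cells were at or below these values and could not be told from them. The shares of Nt5e in control CD8, IR CD4 and IR CD8 cells, of Adora2a in IR CD8 cells and of Entpd1 in IR DN cells lay above the non-T value but within its interval. The non-T levels differed by condition, on few UMIs: in control they were 104 CPM (53.9 to 182) for Entpd1, 113 CPM (60.2 to 193) for P2rx7 and 43.5 CPM (14.1 to 102) for Adora2a, and for Nt5e 8.70 CPM (0.220 to 48.5). These intervals hold the levels of all 3 control subsets for Entpd1 and Adora2a and that of control CD8 cells for P2rx7 and Nt5e. In IR they were 60.7 CPM (39.3 to 89.7) for Entpd1, 17.0 CPM (6.84 to 35.0) for P2rx7, 4.86 CPM (0.588 to 17.6) for Adora2a and 29.2 CPM (15.1 to 50.9) for Nt5e. They hold the levels of IR CD4 and IR DN cells for Entpd1, of IR CD8 for P2rx7, of IR CD4 and IR CD8 for Nt5e and of no IR subset for Adora2a.

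Ischemia-reperfusion was compared with the control kidney within each sorted subset. A gene was called if its higher level was 10 CPM or more and its levels differed by a factor of 2 or more. P2rx7 was called lower in all 3 subsets, Entpd1 in CD4 and CD8 cells and Adora2a in CD8 cells, Nt5e in none, and no member was called higher. Over all genes at 10 CPM, 11.3% were called lower and 8.31% higher in DN, 15.1% lower and 7.72% higher in CD4, and 17.7% lower and 7.93% higher in CD8 cells, with median log2 ratios of -0.26, -0.26 and -0.38. The members called lower were thus 1 of 4 in DN, 2 of 4 in CD4 and 3 of 4 in CD8 cells, with median log2 ratios over the 4 of -0.46, -0.78 and -1.42.

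P2rx7 was 2.12-fold lower in IR DN cells (log2 ratio -1.08, interval -1.21 to -0.96), 3.24-fold lower in IR CD4 cells (-1.70, -1.78 to -1.61) and 5.28-fold lower in IR CD8 cells (-2.40, -2.66 to -2.15). Entpd1 was 1.82-fold lower in DN (-0.86, -1.02 to -0.71), 2.39-fold lower in CD4 (-1.26, -1.37 to -1.15) and 3.55-fold lower in CD8 cells (-1.83, -2.05 to -1.61). For both genes the ratio was closest to 0 in DN and farthest from it in CD8 cells, with separate intervals. Adora2a had log2 ratios of -0.06 (-0.24 to 0.12) in DN, -0.31 (-0.43 to -0.18) in CD4 and -1.02 (-1.29 to -0.76) in CD8 cells. Nt5e had log2 ratios of 0.03 (-0.15 to 0.21) in DN, -0.26 (-0.38 to -0.14) in CD4 and -0.25 (-0.46 to -0.05) in CD8 cells. In DN cells the intervals of Nt5e and Adora2a thus included 0. The call of Adora2a in CD8 cells, 2.02-fold, was lost under 6 of 15 alternatives, with log2 ratios from -1.44 to -0.70 over all of them.

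**Figure D2:**
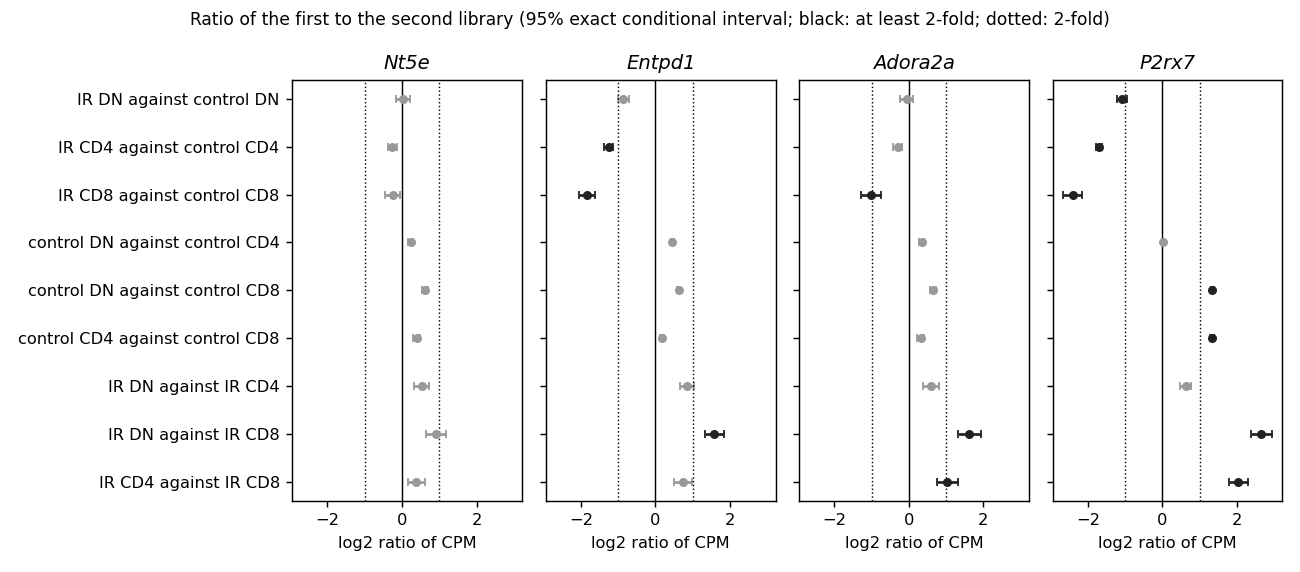
Log2 ratio of CPM between 2 libraries for each gene (x axis, 0 is no difference, dotted lines mark 2-fold) in the 9 comparisons (y axis), with 95% exact conditional intervals; black points differ at least 2-fold. P2rx7 and Entpd1 lie left of 0 in the top 3 comparisons, IR against control, and all 4 genes lie right of 0 in the comparisons of IR DN with IR CD8 and of IR CD4 with IR CD8.

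Gene length moved with these ratios. Over all genes at 10 CPM placed in 20 bins of intronic length, the median IR over control log2 ratio ran from 0.34 in the bin with the shortest introns to -0.61 in that with the longest in DN cells, from 0.47 to -1.15 in CD4 cells and from 0.19 to -0.88 in CD8 cells. Entpd1 fell in the bin of 114950 to 190693 intronic bases in DN cells, whose median was -0.74, and in bins with medians of -0.90 in CD4 and -0.84 in CD8 cells. Relative to genes of like intronic length, Entpd1 was at -0.12 in DN, -0.36 in CD4 and -0.99 in CD8 cells and was called in none. P2rx7 was at -0.63, -1.13 and -1.78, and its calls in CD4 and CD8 cells held. Nt5e was at 0.48, 0.23 and 0.29 and Adora2a at 0.13, -0.18 and -0.70. The part of intronic reads in the Entpd1 result was not tested.

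The share of cells with a UMI of Ccr7, the lymph node homing receptor of naive and central memory T cells, also moved with condition. It was 7.51% in control CD4 and 20.1% in IR CD4 cells and 16.8% in control CD8 and 37.5% in IR CD8 cells, although the IR cells were shallower. Without Ccr7 cells, an alternative added once the data had been seen, the IR over control log2 ratio of P2rx7 was -1.53 in CD4 and -2.17 in CD8 cells and that of Entpd1 -1.11 and -1.55, all still called. That of Adora2a in CD8 cells was then -0.82 and not called. For Nt5e the ratios were -0.13 in CD4 and -0.02 in CD8 cells. Without the cluster led by the myeloid and antigen presentation genes Cd74, H2-Eb1 and Apoe (248 cells, 82.7% with a CD3 UMI), also left out once the data had been seen, the ratios of Entpd1 were -0.86, -1.27 and -1.83 and those of P2rx7 -1.08, -1.69 and -2.40 in DN, CD4 and CD8 cells. Without cells that held a Foxp3 UMI, the ratio of Nt5e in CD4 cells was -0.10.

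In the normal kidney, DN cells were set beside CD4 and CD8 cells. Against CD4 cells no member was called, where 1.35% of genes were higher and 1.4% lower in DN cells: the log2 ratios were 0.45 (0.41 to 0.50) for Entpd1, 0.24 (0.16 to 0.31) for Nt5e, 0.34 (0.27 to 0.41) for Adora2a and 0.01 (-0.02 to 0.05) for P2rx7. Against CD8 cells, P2rx7 was 2.54-fold higher in DN cells (1.34, 1.30 to 1.39), the 1 member called, where 3.55% of genes were higher and 3.03% lower. Entpd1 (0.62), Nt5e (0.63) and Adora2a (0.66) were each between 1.54 and 1.58-fold higher in DN than in CD8 cells, with intervals above 0. P2rx7 was also 2.51-fold higher in control CD4 than in control CD8 cells (1.33, 1.28 to 1.38), the 1 member called, where 2.61% of genes were higher and 1.75% lower.

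The same comparisons were made after ischemia-reperfusion. In IR DN against IR CD8 cells, P2rx7 was 6.32-fold higher (2.66, 2.38 to 2.94), Adora2a 3.06-fold (1.62, 1.31 to 1.93) and Entpd1 2.99-fold (1.58, 1.32 to 1.84), so that 3 of 4 members were called higher where 7.74% of genes were higher and 4.21% lower. Nt5e was 1.88-fold higher (0.91, 0.65 to 1.18) and not called. That held under 10 of 15 alternatives and it was called higher under the others, with log2 ratios from 0.76 to 1.26 over all of them. In IR CD4 against IR CD8 cells, P2rx7 was 4.10-fold higher (2.03, 1.78 to 2.30) and Adora2a 2.04-fold (1.03, 0.75 to 1.31), 2 of 4 members, where 3.73% of genes were higher and 3.9% lower. The call of Adora2a was lost under 6 of 15 alternatives. In IR DN against IR CD4 cells no member was called, where 4.84% of genes were higher and 2.46% lower, although all 4 log2 ratios had intervals above 0, at 0.85 for Entpd1, 0.62 for P2rx7, 0.59 for Adora2a and 0.53 for Nt5e. The IR comparisons share libraries with each other and with those of IR against control.

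Within a library, the 4 genes were followed in cells with and without a UMI of another gene. Such a gate is a UMI and not a cell type, and it misses cells in which the transcript was not captured. Nt5e was concentrated in cells with Foxp3, the lineage factor of regulatory T cells: in control CD4 cells it was at 212 CPM in the 342 cells with a Foxp3 UMI and 45.6 CPM in the other 8912 (log2 ratio 2.22, 2.07 to 2.36). These were 3.70% of the cells and held 17.1% of the Nt5e UMIs. In IR CD4 cells Nt5e was at 86.4 CPM (62.8 to 116) in the 309 cells with Foxp3 and 42.5 CPM in those without (1.02, 0.55 to 1.47). Nt5e in Foxp3 cells was thus lower in IR than in control CD4 cells, with separate intervals, while Nt5e in the other CD4 cells was 42.5 and 45.6 CPM. Cells with Izumo1r, the gene of folate receptor 4, held Nt5e at 78.4 against 42.3 CPM in control CD4 cells and 56.0 against 42.4 CPM in IR CD4 cells, but at 49.6 against 64.2 CPM in control DN cells (-0.37, -0.52 to -0.23). Cells with Itgae, the CD103 integrin chain of tissue resident cells, had Nt5e at 197 against 49.2 CPM in control CD4 cells. Entpd1, which regulatory T cells are also known to carry, was at 157 against 112 CPM with and without Foxp3 in control CD4 cells (0.49, 0.33 to 0.65), and at 41.2 against 47.7 CPM in IR CD4 cells (-0.21, -0.91 to 0.41).

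Cells with Ccr7 held little Entpd1, Adora2a and P2rx7 in all 4 CD4 and CD8 libraries. Entpd1 was at 23.8, 24.6, 11.1 and 6.40 CPM in Ccr7 cells of the control CD4, control CD8, IR CD4 and IR CD8 libraries and at 121, 121, 56.2 and 41.3 CPM in the others. P2rx7 was at 65.9, 27.5, 15.5 and 6.40 CPM in Ccr7 cells and at 291, 129.98, 101 and 28.8 CPM in the others. The log2 ratios lay between -2.69 and -2.30 for Entpd1, between -2.71 and -2.14 for P2rx7 and between -1.63 and -1.52 for Adora2a. Nt5e differed among the 4 libraries: in control CD8 cells it was at 74.1 CPM in the 1567 Ccr7 cells, which held 37.8% of its UMIs, and at 31.3 CPM in the others (1.24, 1.10 to 1.38), and in IR CD8 cells at 38.4 against 31.0 CPM (0.31, -0.10 to 0.71). In control CD4 cells it was at 62.6 against 51.8 CPM (0.27, 0.08 to 0.46), while in IR CD4 cells it was lower in Ccr7 cells, as the other 3 genes were, at 29.6 against 47.4 CPM (-0.68, -1.02 to -0.35).

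In DN cells P2rx7 was lower with Fcer1g, the gene of the Fc receptor γ chain that natural killer-like T cells carry. In control DN cells it was at 174 CPM in the 2190 cells with an Fcer1g UMI and 313 CPM in the others (-0.84, -0.90 to -0.79), and in IR DN cells at 35.1 CPM in 585 cells and 148 CPM in the others (-2.08, -2.73 to -1.49). Entpd1 was at 149 against 158 CPM and at 73.1 against 87.8 CPM in the same gates, and Nt5e at 66.9 against 60.2 CPM and at 62.9 against 63.5 CPM, all differing by less than 0.3 on the log2 scale. Adora2a was at 65.9 against 62.5 CPM in control and lower with Fcer1g in IR DN cells, at 42.4 against 64.3 CPM (-0.60, -1.21 to -0.04). Klrb1c, the NK1.1 gene, marked lower P2rx7 in control DN cells, 226 against 319.6 CPM (-0.50, -0.54 to -0.45), and a difference within its interval in IR DN cells (-0.01, -0.31 to 0.29). In IR CD4 cells the 772 cells with Klrb1c were higher for Entpd1 (89.0 against 43.6 CPM), Adora2a (70.3 against 37.6 CPM) and P2rx7 (152 against 78.2 CPM). Cells with Zbtb16, the PLZF factor of innate-like T cells, were higher for P2rx7 in both CD4 libraries, 337 against 237 CPM in control and 188 against 73.2 CPM in IR. Cells with Pdcd1, the PD-1 gene, were higher for Entpd1 in control CD8 (164 against 84.1 CPM) and IR CD8 cells (106 against 26.8 CPM, from 15 UMIs in 123 cells). They were also higher in control CD4 (152 against 108 CPM), control DN (205 against 150 CPM) and IR CD4 cells (81.3 against 46.2 CPM). In IR DN cells, at 83.5 against 85.5 CPM, the interval included 0 (-0.04, -1.26 to 0.96).

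**Figure D3:**
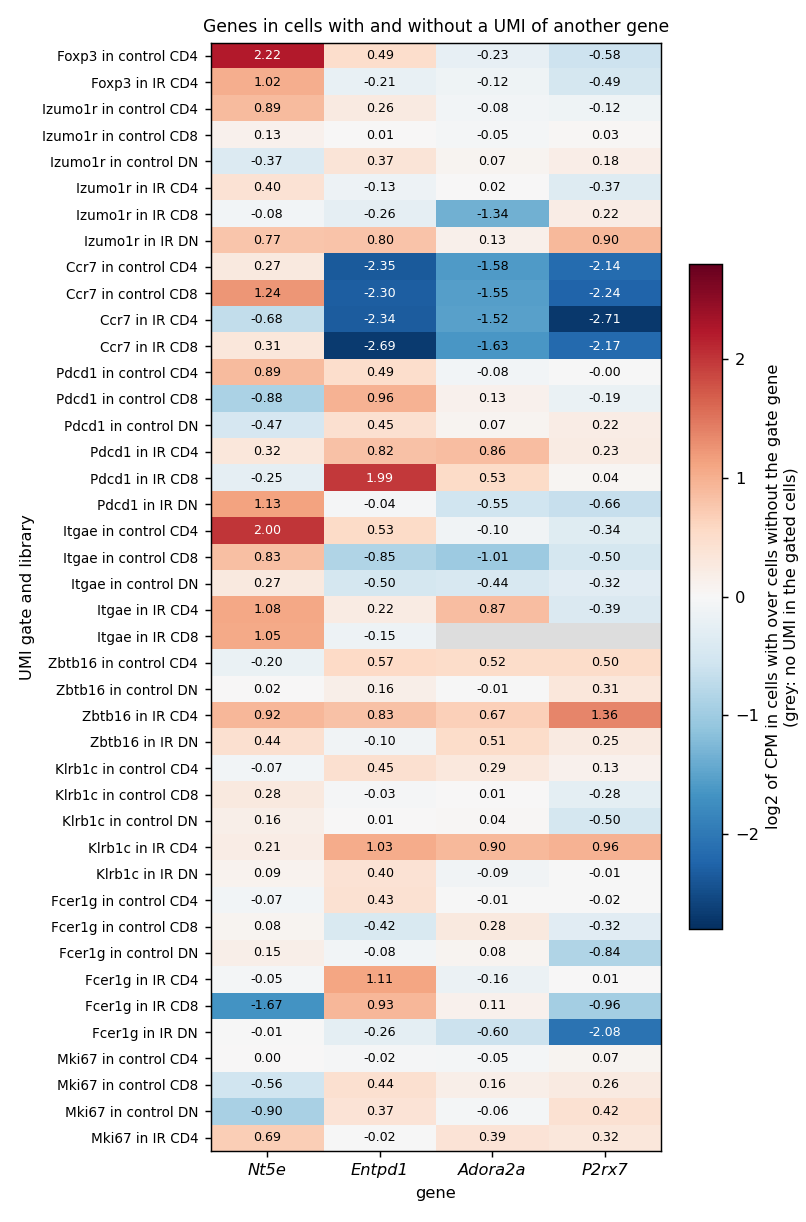
Log2 ratio of CPM in cells with over cells without a UMI of the gate gene (color and number), for each of the 4 genes (columns) and each gate and library with at least 50 gated cells (rows); grey marks no UMI in the gated cells. Nt5e is highest in the Foxp3 and Itgae gates of control CD4 cells (2.22 and 2.00), the Ccr7 rows are low for Entpd1, Adora2a and P2rx7, and P2rx7 is low in the Fcer1g gate of IR DN cells (-2.08).

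Among the clusters, whose genes include the 4 members, levels are given as a description. Control DN cells fell mainly in 4 clusters. P2rx7 was at 294 CPM in the cluster led by Kcnq5 and Lyst (cluster 9, 4916 cells), 124 CPM in that led by Fcer1g and Klrk1 (cluster 10, 1668 cells) and 388 CPM in that led by Cmss1 and Itgb1 (cluster 11, 1459 cells), and at 401 CPM in that led by Slc9a9 and Ankrd44 (cluster 2, 503 cells). Nt5e was at 73.1, 66.1, 19.1 and 79.9 CPM in the same clusters, and Adora2a at 64.4, 61.8, 66.2 and 57.9 CPM. The clusters with the most P2rx7, 11 and 2, thus had the least and the most Nt5e. Cluster 2 was shallower, with 1227229 UMIs in its 503 control DN cells against 10545156 in the 1459 of cluster 11. Over all libraries, 86.6% of its cells held a CD3 UMI, against 99.9% in cluster 11. Of the IR DN cells, 3410 fell in the cluster led by Dusp1 (cluster 16), with P2rx7 at 144 CPM, and 293 in one led by Ccl5 and Fcer1g, with P2rx7 at 13.6 CPM.

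CD4 and DN cells that shared a cluster are set side by side. In the cluster led by Kcnq5 and Lyst, control CD4 and control DN cells had P2rx7 at 308 and 294 CPM, Adora2a at 61.7 and 64.4 CPM, Entpd1 at 119.6 and 144 CPM and Nt5e at 58.2 and 73.1 CPM. In the cluster led by Dusp1, 3318 IR CD4 and 3410 IR DN cells had P2rx7 at 157 and 144 CPM, Adora2a at 64.0 and 66.8 CPM, Entpd1 at 74.4 and 90.6 CPM and Nt5e at 56.7 and 66.5 CPM. In cluster 11, 984 control CD4 and 1459 control DN cells had P2rx7 at 366 and 388 CPM, Adora2a at 66.0 and 66.2 CPM, Entpd1 at 175 and 209 CPM and Nt5e at 16.2 and 19.1 CPM. In cluster 2, control CD4 and control DN cells had P2rx7 at 429.9 and 401 CPM and Entpd1 at 189 and 259 CPM. The 2836 IR CD4 cells of the cluster led by Klf2 (cluster 21), which also listed Ccr7, had P2rx7 at 5.14 and Entpd1 at 3.85 CPM. The IR CD8 cells were split in the same way: the 1984 cells of the cluster led by Ccl5 and Nkg7 had Entpd1 at 63.9 and P2rx7 at 38.6 CPM, and the 3847 cells of that led by Klf2 and Ccr7 (cluster 20) had 6.71 and 7.25 CPM. Control and IR cells were mostly in different clusters. Of those that held CD4 cells of both, the cluster led by Ikzf2 and Ctla4 (cluster 8), which also listed Foxp3, had Nt5e at 233 CPM in 406 control and 99.2 CPM in 560 IR cells. Cluster 2 ran the other way, with Nt5e at 73.3 CPM in 1638 control and 134 CPM in 125 IR cells, the latter from 18 UMIs.

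**Figure D4:**
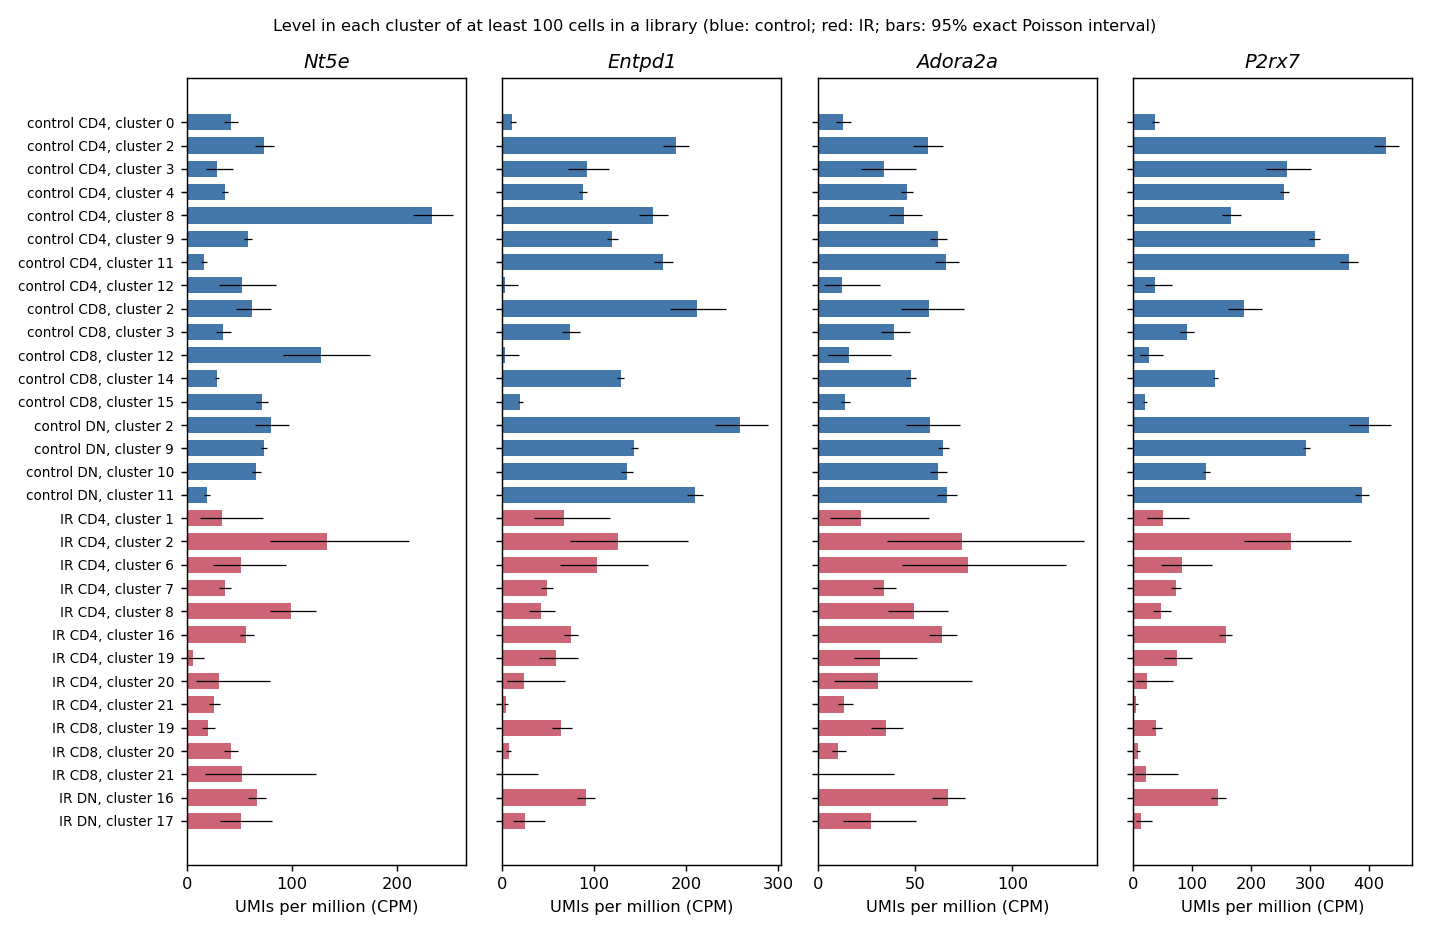
CPM of each gene (x axes, from 0) in each cluster that holds at least 100 cells of a library (y axis, by cluster number), control in blue and IR in red, with 95% exact Poisson intervals. Nt5e peaks in the control CD4 cells of cluster 8, at 233 CPM, and Entpd1 and P2rx7 are under 8 CPM in the 2836 IR CD4 cells of cluster 21 and the 3847 IR CD8 cells of cluster 20.

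For the enzymes that make adenosine in sequence, Nt5e was not more frequent in cells with Entpd1 than in cells without it, beyond the intervals. Cells with both were few after thinning, from 1 in IR CD8 to 39 in control DN cells, which limits this comparison. In cells thinned to 1000 UMIs, Nt5e was found in 3.54% of control CD4 cells with Entpd1 (28 of 792) and 3.61% of those without, in 3.78% (39 of 1032) and 4.25% of control DN cells, and in 3.86% (8 of 207) and 3.84% of IR DN cells. In none of the 6 libraries was Nt5e more frequent in Entpd1 cells beyond the intervals, with or without thinning. Without thinning it was less frequent in them in control CD8 cells, 10.2% (9.02 to 11.4) against 13.5% (12.7 to 14.4), and in control DN cells, 20.2% (19.1 to 21.4) against 22.9% (21.7 to 24.1). It pointed the other way, with overlapping intervals, in IR CD4 cells, 7.40% (5.50 to 9.69) against 5.52% (5.07 to 6.00). The same held in IR DN cells, 8.84% (6.00 to 12.5) against 5.76% (5.03 to 6.56). Control CD4 (14.5% against 14.3%) and IR CD8 cells (1.83% against 3.19%) also had overlapping intervals. P2rx7 was more frequent in Entpd1 cells in 2 of the 6 libraries: it was found in 24.1% (21.2 to 27.3) of control CD4 cells with Entpd1 and 18.7% (17.9 to 19.6) of those without, and in 14.5% (10.0 to 20.04) and 7.91% (7.03 to 8.86) of IR DN cells. In control DN cells the shares were 18.0% and 18.1%, in control CD8 8.33% and 7.33%, in IR CD4 7.42% and 5.08% and in IR CD8 2.91% and 1.09%, with intervals that overlapped. Without thinning the intervals were separate in 5 of 6, with P2rx7 in 69.2% and 55.2% of control CD4, 34.5% and 22.1% of control CD8, 72.6% and 61.8% of control DN, 20.3% and 9.96% of IR CD4 and 17.7% and 11.1% of IR DN cells with and without Entpd1, while in IR CD8 cells they overlapped (1.83% and 1.72%). Depth then differed between cells, and a deeper cell is more likely to hold a UMI of either gene, which limits these unthinned shares. How often other genes were found with Entpd1 in this way was not counted. At least 1 member was found in 31.0%, 19.2% and 34.2% of thinned control CD4, CD8 and DN cells and in 12.1%, 5.38% and 19.7% of IR cells.

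The rest of the pathway was read from 9 lists with 63 measured genes, of which 28 were under 10 CPM in all 6 libraries and 18 were called in at least 1 of the 9 comparisons. Of all genes at 10 CPM in a library, 39.7% were called in at least 1 of the 9 comparisons, against 18 of 35 here. All 7 P2Y receptors, the 3 other adenosine receptors and 5 of the 6 other P2X channels were under 10 CPM throughout, so that P2rx7, P2rx4 (22.5 to 41.1 CPM) and Adora2a were the purine receptors measured at that level. P2rx4 was called in no comparison and is named here after its values were seen. Of the pathway genes at 10 CPM, 6 of 35 were called lower and 1 higher in IR DN (11.3% and 8.31% of all genes), 7 of 35 lower and 0 higher in IR CD4 (15.1% and 7.72%), and 7 of 33 lower and 1 higher in IR CD8 cells (17.7% and 7.93%). These lower counts are near the share over all genes.

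Among ectoenzymes, Cd38, which consumes extracellular NAD, was lower in all 3 IR subsets. It was at 62.7, 56.4 and 79.5 CPM in control CD4, CD8 and DN cells against 10.7, 11.3 and 24.6 CPM in IR cells, log2 ratios of -2.56, -2.32 and -1.69. Art2b, also named after its values were seen, was at 119, 85.2 and 156 CPM in control and 74.4, 67.8 and 104 CPM in IR cells, with its highest level in DN cells of both kidneys, and was called in none. Acpp, an acid phosphatase able to act on AMP, was 2.24-fold higher in control DN than in control CD8 cells (46.6 against 20.8 CPM). Enpp1, which cleaves ATP to AMP, was at 26.7 CPM in IR DN and 12.1 CPM in IR CD8 cells. Alpl, an alkaline phosphatase that can also dephosphorylate AMP, was under 10 CPM throughout but had 9, 6 and 6 UMIs in control CD4, CD8 and DN cells (0.178, 0.132 and 0.0987 CPM) and 48, 49 and 33 UMIs in the IR libraries (3.102, 7.60 and 7.52 CPM).

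Of the genes that clear adenosine, Adk, adenosine kinase, was higher in IR DN (91.2 against 36.3 CPM) and IR CD8 cells (123 against 58.1 CPM), and was at 128 against 84.3 CPM in CD4 cells. Ada, adenosine deaminase, was higher in DN than in CD8 cells of both kidneys (15.6 against 5.84 CPM and 11.6 against 4.81 CPM). Dpp4, the surface peptidase CD26, was higher in CD8 cells, at 131 CPM in control and 82.7 CPM in IR CD8 cells against 41.3 and 29.0 CPM in DN cells. The transporter gene Slc29a3 was lower in all 3 IR subsets, and Slc28a2, a concentrative nucleoside transporter, was at 167 CPM in control CD8 and 50.6 CPM in IR CD8 cells. Slc17a9, which loads ATP into vesicles, was higher in CD8 than in DN cells of both kidneys (39.4 against 17.6 CPM and 23.1 against 9.12 CPM).

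Downstream of the Gs-coupled receptor, 7 of the 16 genes of cAMP signalling, 1 of them under 10 CPM throughout, were called in at least 1 comparison, beside 39.7% of all genes. The phosphodiesterase genes Pde3b and Pde7a, whose products break down cAMP, were lower in all 3 IR subsets: Pde3b was at 1004, 791 and 1179 CPM in control CD4, CD8 and DN cells against 275, 266 and 443 CPM in IR, and Pde7a at 769, 857 and 699.6 CPM against 181, 217 and 271 CPM. Adcy7, an adenylyl cyclase, was lower in IR CD4 and IR CD8 cells (108 against 227 CPM and 110.2 against 221 CPM), and Prkacb, a catalytic subunit of protein kinase A, in IR CD4 cells. Adcy3, another adenylyl cyclase, was lower in control DN than in control CD8 cells (15.6 against 33.2 CPM). Crem, a cAMP-induced repressor, was at 156 and 184 CPM in IR CD4 and IR DN and 65.0 CPM in IR CD8 cells, and Pde4a was at 13.4, 22.1 and 4.04 CPM in the same libraries. Of the genes linked to P2rx7 output, Casp1, the inflammasome caspase, was lower in DN than in CD4 or CD8 cells of both kidneys, at 16.4 against 55.2 and 54.4 CPM in control and 7.30 against 33.6 and 20.3 CPM in IR. Ano6, a scramblase, was lower in IR DN and IR CD4 cells, and Nlrp3 was under 0.5 CPM in every library.

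**Figure D5:**
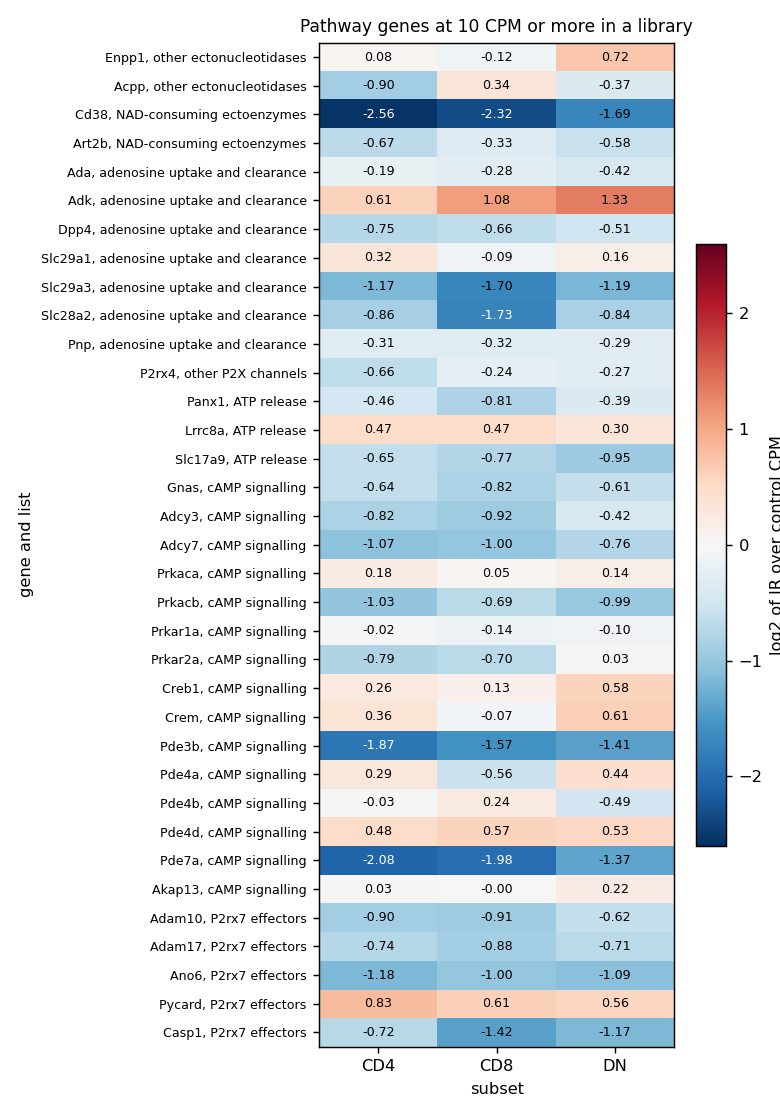
Log2 ratio of IR over control CPM (color and number) in CD4, CD8 and DN cells (columns) for the 35 pathway genes that reached 10 CPM in at least 1 library (rows, with their list). Cd38, Pde3b and Pde7a are below -1 in all 3 columns, and Adk is above 0.6 in all 3.

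The genes most like each member over the 6 libraries were found by the mean absolute difference of log2(CPM + 1) after each gene's mean was taken off, among 9661 genes. Nt5e was closest to Por, Abhd16a and Pik3r1 (0.04 to 0.06), and Por was at 56.4, 41.3 and 67.9 CPM in control CD4, CD8 and DN cells against 51.2, 36.6 and 67.3 CPM in IR. Entpd1 was closest to Crot, Calhm2 and Fhit (0.08 to 0.11) and Adora2a to Gne, Mtmr7 and Dok2 (0.10 for each). P2rx7 was closest to Gm36723, Nr3c1 and Chn2 (0.12 to 0.20), and Nr3c1, the glucocorticoid receptor gene, was at 1174, 557 and 1278 CPM in control CD4, CD8 and DN cells against 350.1, 126 and 520.3 CPM in IR. The 6 points share the depth and the software version of their condition.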

How the data were processed

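Sorted kidney αβ T cells were run on a droplet platform for 3′ single cell RNA-Seq. The deposited matrices hold raw UMI counts per feature and barcode, made by the authors with Cell Ranger on mm10; the submitters' processing notes name version 6.0.1, while the control matrices name 5.0.1 in their header. Barcodes with at least 500 features and at most 20% mitochondrial UMIs were kept, and the top 5% of barcodes by UMIs in each library, which can hold doublets, were removed (54039 deposited, 48277 kept; no doublet caller was run). Cells were clustered with scanpy 1.11.5, and 2 clusters in which under 50% of barcodes held a CD3 UMI were set aside (338 barcodes). Between 26 and 62 cells per library carried a barcode also found in another library of the same kidney.

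UMI counts were summed per library without 104 ribosomal protein, mitochondrial and Malat1 features and scaled to CPM, giving 4386054 to 60769969 UMIs per library; a count of 0 allows at most 0.0494 to 0.684 CPM (3 counts). Intervals are exact Poisson, Clopper-Pearson or conditional ratio intervals at 95% and cover counting error only. With 1 library per group no test was run, and none that takes the subsets as replicates. A gene was called at 10 CPM or more in the higher library and at least 2-fold. TMM factors came from edgeR 4.0.16 in R 4.3.3. The ratio step was tested on simulated data. The 4 genes, the 9 pathway lists, the markers and the gates were chosen with earlier results of these data known. Pathway genes could be named where called in at least 1 of 9 comparisons or under 10 CPM in all libraries, and the 3 most alike genes were named for each member. Of 32285 features, 99.8% matched GENCODE M21. Acp3, Art2a and Art2a-ps had no row of that symbol. Alternatives were the scaling, the cell filters, thinning, the mean over cells, intronic length, the CPM minimum and the fold. The files hold gene counts, so that neither splicing nor protein was measured.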

Additional observations from a re-analysis of the deposited data

Results flagged for a closer look

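Each group held 1 library, so that no sample could be compared with others of its group. Among the 4 members none had IR over control ratios that pointed in opposite directions in different subsets with both intervals away from 0. Of the pathway genes, Acpp and Pde4b did. Acpp had log2 ratios of -0.90 (-1.08 to -0.73) in CD4 and -0.37 (-0.61 to -0.14) in DN cells and 0.34 (0.09 to 0.57) in CD8 cells. Pde4b, named after its values were seen, had log2 ratios of -0.49 (-0.59 to -0.40) in DN, -0.031 (-0.08 to 0.02) in CD4 and 0.24 (0.16 to 0.31) in CD8 cells. The difference between the subsets was not tested, since each had 1 library per condition, and both genes were within 2-fold in all 3 subsets.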

How the results depend on the processing

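Of the 36 member and comparison pairs, 22 kept their call, or their lack of one, under all alternatives run, and no called ratio changed sign. The number of members called moved by over 1.5 times as follows. In IR DN against control DN it was 1, and 2 with the removed features kept in the total or at 1.5-fold (1383 genes higher and 2787 lower of 9201) and 0 after centring by intronic length. After that centring it was 1 in IR CD4 and 1 in IR CD8 cells against control, where it was 2 and 3. In IR CD4 against IR CD8 it was 1 in place of 2 with TMM scaling, with only CD3 cells, after thinning, after centring by intronic length, at a minimum of 50 CPM and without Ccr7 cells. Beside it, 119 genes were higher and 100 lower of 3937 at the minimum of 50 CPM. In the other settings named, 290 to 372 were higher and 339 to 378 lower of 8744 to 8831. At 1.5-fold it was 4 in control DN against control CD8 and 3 in IR DN against IR CD4, beside 669 higher and 584 lower of 8969 and 871 and 474 of 8899 genes. In the latter comparison keeping the removed features gave 1, beside 443 higher and 144 lower of 7790 genes. The pathway genes called in at least 1 comparison were 18 (39.7% of all genes), and 41 with no minimum CPM (72.0%), 11 at 50 CPM (37.8%) and 29 at 1.5-fold (71.9%). The cause of these moves was not tested, other than that a lower threshold admits more genes.

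Keeping the removed features in the total moved the median log2 ratio of all genes from -0.26, -0.26 and -0.38 to -0.45, -0.64 and -0.82 in DN, CD4 and CD8 cells. The genes called higher and lower in IR DN were 765 and 1036, and 879 and 378 after centring by intronic length; in IR CD4 they were 698 and 1361 against 755 and 460, and in IR CD8 722 and 1613 against 963 and 528. With the removed features kept they were 527 and 1523, 310 and 2571, and 327 and 3257. No paired analysis was possible because the labels give no replicate numbers and each group held 1 library, which also leaves no replicate to leave out. A model that takes the 3 subsets as replicates of a condition was not run. Depth was lowest in IR DN cells (4386054 UMIs), and the members had the fewest UMIs in IR CD8 cells (128 to 217 each).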
